A study of Mus musculus with 12 samples.

Results

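The genes described here are 10 members of the antioxidant programme of the cell: Nfe2l2, which encodes the transcription factor NRF2, and 9 genes known as its targets, namely Nqo1, Gclm, Gclc, Txnrd1, Srxn1, Slc7a11, Prdx1, Gsr and Ephx1. They were taken from the deposited count table by gene symbol, 10 of its 57010 genes. All 10 were among the 15943 genes with enough counts to be tested. They were followed in large peritoneal macrophages, the resident F4/80-high, MHC class II-low macrophages of the mouse peritoneal cavity, across 4 groups of 3 RNA-seq libraries each. WT naive and Tim4KO naive came from unchallenged female mice, wild type or lacking the scavenger receptor Tim4. WT ID8 and Tim4KO ID8 came from female mice injected intraperitoneally at 8 weeks of age with ID8, a mouse ovarian tumour line that here expressed the fluorescent protein ZsGreen and ovalbumin, 24 h earlier. The sort after challenge kept ZsGreen-positive cells alone, so that challenge and uptake of tumour material were measured together. How the Tim4 allele was made, the strain and the age of the naive mice are not given in the sources used here.

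NRF2 is made continuously and is held at a low level by KEAP1, an adaptor that brings it to a CUL3-RBX1 ubiquitin ligase for destruction. Oxidants and electrophiles modify cysteines of KEAP1, NRF2 then accumulates without any need for more Nfe2l2 transcript, pairs with a small MAF protein and binds antioxidant response elements, sites that BACH1 can occupy as a repressor. Its targets rebuild glutathione and thioredoxin, supply NADPH and detoxify quinones and epoxides, and in macrophages they are known to be induced by oxidative stress and by heme from ingested red cells.

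The promoters of the 4 targets that rose on challenge in both genotypes (below) are shown, since these are the sequences on which the known regulation of the family acts. Each is the 250 bases before the start of transcription as RefSeq gives it on GRCm38.p6, written 5′ to 3′ on the strand of the gene, and all 4 genes lie on the plus strand. The windows are chr2:152105274-152105523 for Srxn1, chr4:116685349-116685598 for Prdx1, chr3:122245307-122245556 for Gclm and chr10:82858956-82859205 for Txnrd1, the latter being the only one of its 3 RefSeq entries with a match. Capitals mark matches, on either strand, to the antioxidant response element core TGACNNNGC, the AP-1 site TGANTCA, or TGANTCAGC, the AP-1-like form of the NRF2-small MAF site.
Srxn1: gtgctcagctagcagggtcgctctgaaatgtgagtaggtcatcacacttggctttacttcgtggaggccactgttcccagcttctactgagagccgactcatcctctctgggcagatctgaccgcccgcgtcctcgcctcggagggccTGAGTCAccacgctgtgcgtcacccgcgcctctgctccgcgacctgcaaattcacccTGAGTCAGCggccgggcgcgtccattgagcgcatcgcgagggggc
Prdx1: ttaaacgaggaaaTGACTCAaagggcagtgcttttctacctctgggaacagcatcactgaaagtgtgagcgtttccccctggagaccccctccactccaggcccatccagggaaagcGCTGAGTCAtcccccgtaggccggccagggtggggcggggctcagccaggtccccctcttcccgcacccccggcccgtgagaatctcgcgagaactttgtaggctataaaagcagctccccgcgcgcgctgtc
Gclm: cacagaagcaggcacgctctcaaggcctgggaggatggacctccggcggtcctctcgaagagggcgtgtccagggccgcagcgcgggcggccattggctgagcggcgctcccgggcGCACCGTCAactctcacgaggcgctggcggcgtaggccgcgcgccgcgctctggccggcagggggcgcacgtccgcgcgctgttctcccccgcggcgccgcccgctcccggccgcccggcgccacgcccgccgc
Txnrd1: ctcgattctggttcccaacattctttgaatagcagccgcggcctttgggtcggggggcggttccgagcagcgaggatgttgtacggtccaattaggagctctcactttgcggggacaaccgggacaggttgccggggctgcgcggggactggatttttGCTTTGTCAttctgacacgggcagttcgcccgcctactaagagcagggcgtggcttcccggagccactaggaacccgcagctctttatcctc
Every TGANTCAGC match contains a TGANTCA match, and where it begins with TGAC it is a TGACNNNGC match too, so these counts overlap. In Srxn1 the capitals begin 102 and 45 bases before the start, and the run nearer the start reads TGAGTCAGC. In Prdx1 they begin 237 and 133 bases before the start, and the latter, read on the opposite strand, satisfies all 3 patterns. Gclm had a TGACNNNGC match 134 bases and Txnrd1 one 92 bases before the start, both on the opposite strand. Of 10 RefSeq promoter entries found for 8 of the listed genes, 4 held TGACNNNGC, which 10.2% of all 32851 promoter entries hold. TGANTCA was in 2 of the 10 entries against 6.75% of all entries, and TGANTCAGC in the same number against 1.02%. The remaining TGACNNNGC match was in Nfe2l2, 240 bases before the start. Slc7a11 held TGATGNAA, the core of a composite C/EBP-ATF site, which 3.45% of all entries hold, 66 and 47 bases before its start. The E-box CACGTG was in 0 of the 10 entries against 6.02% of all. A match is a description of the letters, and no match says only that these letters are not in this window. Gclc and Gsr had no entry.

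Library totals ran from 7358559 to 23170244 counts. Timd4, the gene for Tim4, lay between 882.5 and 1489 CPM (counts scaled to library size with TMM factors, the unit of all levels below) in the 6 WT libraries and between 1.38 and 7.71 CPM in the 6 Tim4KO libraries, as the labels imply. The macrophage markers Adgre1 (F4/80) and Gata6 were present in every library, at 2569 to 6299 CPM and 120.2 to 193.8 CPM. Markers of tumour or mesothelial epithelium summed to 1.64 to 5.54 CPM over 10 genes in challenged libraries, below the 5.74 to 25.1 CPM of naive ones. One library, WT ID8 3, stood apart from the other challenged WT libraries: chi-square values of its counts against theirs, divided by the degrees of freedom, were 46.5 and 78.6, and those of any other pair within a group were at most 21.6. It also had the fewest genes with a count (21235) and the least signal in olfactory and vomeronasal receptor genes, a measure of background. That signal was 245.9, 76.9 and 5.57 CPM in WT ID8 and 39.5, 352.7 and 279.3 CPM in Tim4KO ID8. In naive libraries it was 264.3 to 862.4 CPM, so every WT ID8 library lay below every naive one. Background and challenge thus went together in WT. Its part in the challenge changes was not tested beyond a fit with background as a covariate. This background was summed over receptor genes of mean at most 1 CPM and, unlike the other levels, scaled to library totals without TMM factors. Results that rest on WT ID8 3 are given with and without it. The labels do not say that the libraries of a group came from separate mice, so the p-values measure the spread between these samples.

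Per kilobase of exon, the listed genes spanned more than 3 orders of magnitude, with the same genes at the top and bottom in every group. In WT naive cells Prdx1, a peroxiredoxin that reduces hydrogen peroxide, was highest at 320.4 ± 13.8 CPM per kb (mean ± SD, n = 3, as below), followed by Gsr, glutathione reductase, at 146.6 ± 29.6. Ephx1, microsomal epoxide hydrolase, came next at 46.0 ± 3.33 CPM per kb and Nfe2l2 itself at 35.5 ± 4.14. The libraries of these 4 genes did not overlap from one to the next. Txnrd1 (8.13 ± 1.13 CPM per kb), Srxn1 (6.91 ± 0.417) and Gclm (6.49 ± 0.424) overlapped their neighbours in the order, and Gclc lay just under them at 5.26 ± 0.490. Nqo1 (0.320 ± 0.0847 CPM per kb) and Slc7a11 (0.174 ± 0.0587), the cystine importer, were at the bottom and overlapped. After challenge the order differed in the middle: Ephx1 held rank 3 of 10 in both naive groups, rank 6 in WT ID8 at 16.4 ± 11.1 CPM per kb and rank 3 in Tim4KO ID8 at 33.6 ± 6.50, where it overlapped Nfe2l2. Nqo1 rested on 3 to 22 counts a library and Slc7a11 on 6 to 45, the lowest counts of the 10 genes.

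**Figure D1:**
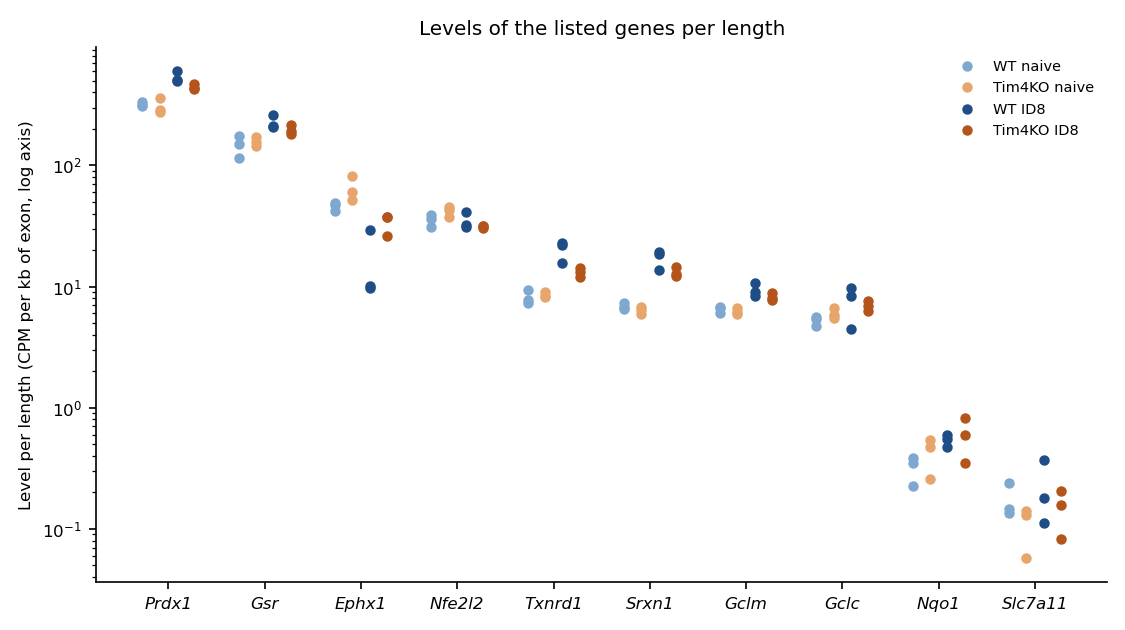
Level of each listed gene in CPM per kilobase of exon (log axis), 1 point per library, coloured by group. Prdx1 and Gsr are the highest genes in every group and Nqo1 and Slc7a11 the lowest. Ephx1 is the gene whose challenged libraries sit below its naive ones in both genotypes, and Nfe2l2 does so in Tim4KO only.

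On challenge, most of the listed genes that passed the test rose, Srxn1, Txnrd1 and Prdx1 having the largest increases among them. In WT cells Srxn1, Txnrd1, Prdx1, Gsr and Gclm rose and Ephx1 fell, by edgeR's quasi-likelihood test with Benjamini-Hochberg adjustment over all tested genes (called at an adjusted p under 0.05). In Tim4KO cells Srxn1, Txnrd1, Prdx1 and Gclm rose and Nfe2l2 fell. That is 5 of 10 higher and 1 lower in WT, where 19.5% of all tested genes were called higher and 12.3% lower, and 4 higher and 1 lower in Tim4KO, where the shares were 11.5% and 5.06%. Because the genes were chosen with earlier results of these data known, these shares are descriptions and not a test of enrichment. The median log2 fold change of the 10 genes was 0.58 in WT, beside -0.04 for all tested genes, and 0.39 in Tim4KO, beside -0.05. Libraries of naive and challenged cells did not overlap for 7 of the 10 genes in WT (44.4% of all tested genes) and for 7 in Tim4KO (41.9%). In these bulk samples fewer cells of a type and less RNA per cell cannot be told apart. Cell markers moved with challenge too. Of 10 large peritoneal macrophage markers, Lyz2 was at 10729 to 14990 CPM in challenged and 40527 to 47486 CPM in naive libraries, which brought their sum to 22867 to 27733 CPM against 52179 to 59393 CPM. Others went the opposite way without overlap: Adgre1 was at 3932 to 6299 CPM after challenge and 2569 to 3789 CPM before, Itgam at 1705 to 2360 against 993.9 to 1334 CPM and Icam2 at 940.6 to 1485 against 616.6 to 911.2 CPM. The 6 neutrophil markers summed to 9.77 to 27.4 CPM against 6.22 to 9.27 CPM, nearly all of it S100a8 (9.13 to 24.8 against 4.40 to 7.38 CPM). Sums were lower after challenge for 6 markers of small peritoneal macrophages or dendritic cells (11.9 to 29.0 against 41.6 to 64.1 CPM), for 5 of mast cells (2.19 to 9.45 against 13.2 to 38.8 CPM) and, with overlap, for 6 of B cells (3.44 to 8.52 against 8.34 to 21.8 CPM), while 6 of T or NK cells were at 3.06 to 8.53 against 3.60 to 6.28 CPM. Their part in the changes of the listed genes was not tested.

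**Figure D2:**
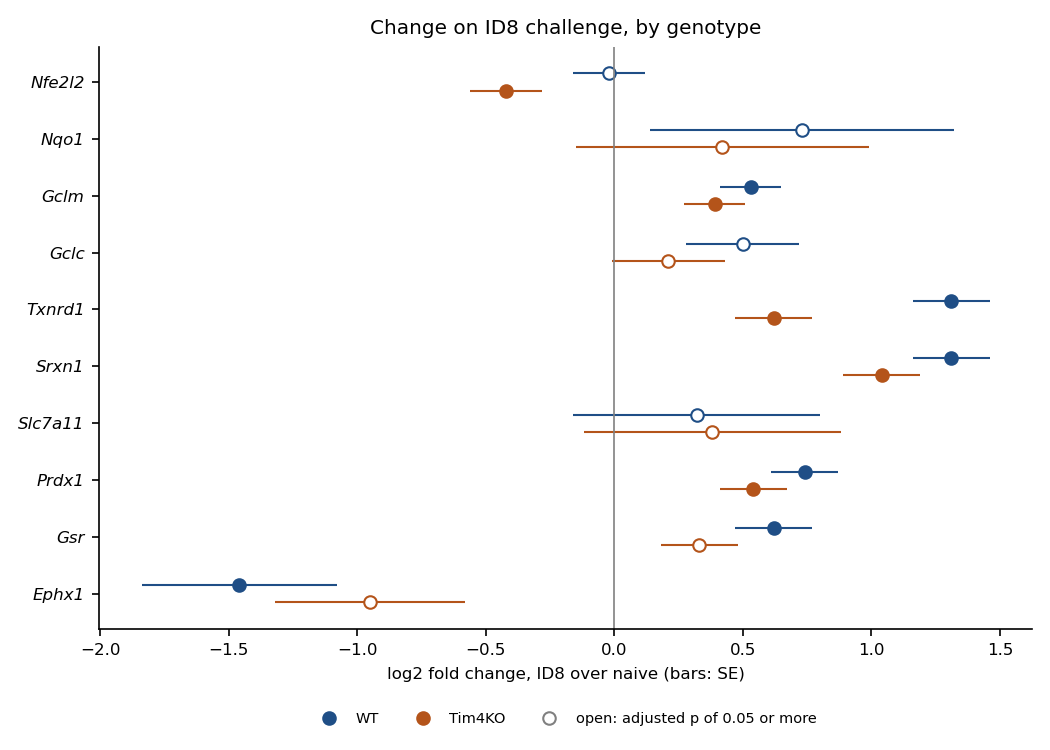
Log2 fold change of each listed gene from naive to ID8 in WT (blue) and Tim4KO (orange) cells, with standard errors as bars and filled points for an adjusted p under 0.05. Srxn1 and Txnrd1 lie farthest to the right in WT at 1.31 each, and Ephx1 farthest to the left at -1.46.

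The 3 listed genes of the thioredoxin branch were called higher in both genotypes. Of all tested genes, 19.5% were called higher in WT and 11.5% in Tim4KO. Srxn1, sulfiredoxin, which repairs over-oxidized peroxiredoxins, was at 20.8, 19.2 and 18.5 CPM in the WT naive libraries and 52.5, 54.6 and 38.3 CPM in the WT ID8 libraries. In Tim4KO it was at 18.0, 19.2 and 16.9 CPM in naive and 34.6, 41.0 and 35.7 CPM in challenged libraries. All challenged libraries were above all naive ones in both genotypes. The log2 fold change was 1.31 in WT (SE 0.15, edgeR adjusted p = 2.46e-05) and 1.04 in Tim4KO (SE 0.15, edgeR adjusted p = 0.000305). Txnrd1, cytosolic thioredoxin reductase, was at 51.6, 66.7 and 54.5 CPM in WT naive and 156.8, 161.4 and 110.8 CPM in WT ID8, and at 63.6, 58.1 and 59.4 CPM in Tim4KO naive and 92.9, 100 and 84.8 CPM in Tim4KO ID8. Here too no challenged library reached down to a naive one, and the Tim4KO ID8 libraries all lay under the WT ID8 ones. Its log2 fold change was 1.31 in WT (SE 0.15, edgeR adjusted p = 3.51e-05) and 0.62 in Tim4KO (SE 0.15, edgeR adjusted p = 0.0122). Prdx1, the substrate that sulfiredoxin acts on, was at 956.7, 1023 and 945.1 CPM in WT naive and 1555, 1819 and 1525 CPM in WT ID8, and at 1095, 868.9 and 837.9 CPM in Tim4KO naive and 1432, 1327 and 1305 CPM in Tim4KO ID8. The groups did not overlap within either genotype. Its log2 fold change was 0.74 in WT (SE 0.13, edgeR adjusted p = 0.000764) and 0.54 in Tim4KO (SE 0.13, edgeR adjusted p = 0.0115). The Tim4KO call of Txnrd1 ended without Tim4KO naive 2 (adjusted p = 0.0587), and that of Prdx1 in 3 of the 12 fits that each left out 1 library, with p of 0.0668 to 0.0762.

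Sulfiredoxin and its substrate did not keep their proportion. Per length, Prdx1 was 42.6, 49.5 and 47.3 times Srxn1 in the WT naive libraries and 27.5, 30.9 and 36.9 times in WT ID8. The ratio was 56.2, 42.0 and 46.0 in Tim4KO naive and 38.4, 30.0 and 33.9 in Tim4KO ID8. Every challenged library had a lower ratio than every naive library of its genotype. These ratios are descriptions and were not tested.

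Of the 4 listed genes of the glutathione branch, 2 were called higher in WT and 1 in Tim4KO. Over all tested genes the shares called higher were 19.5% and 11.5%. Gclm, the modifier subunit of glutamate-cysteine ligase, which makes the first step of glutathione synthesis, was at 37.8, 42.8 and 41.9 CPM in WT naive and 57.2, 67.6 and 52.2 CPM in WT ID8, and at 41.6, 38.6 and 37.7 CPM in Tim4KO naive and 55.4, 50.4 and 48.7 CPM in Tim4KO ID8. The groups did not overlap within either genotype, and its log2 fold change was 0.53 in WT (SE 0.12, edgeR adjusted p = 0.00507) and 0.39 in Tim4KO (SE 0.12, edgeR adjusted p = 0.0422). The Tim4KO call held in 4 of the 12 fits without 1 library and in 3 of 8 other settings. Gclm shares exonic sequence with the gene models Gm17494 and Gm6061, and how reads there were assigned is not given in the sources used here. Gclc, the catalytic subunit of the same enzyme, was at 20.4, 21.3 and 17.7 CPM in WT naive and 31.6, 36.3 and 16.7 CPM in WT ID8. WT ID8 1 and 2 were above all naive libraries, but WT ID8 3 was below all of them. The log2 change of 0.50 (SE 0.22) had an edgeR adjusted p of 0.0908. Leaving out WT ID8 3 gave 0.81 (adjusted p = 0.00028). In Tim4KO Gclc was at 24.8, 20.8 and 21.7 CPM in naive and 25.9, 28.7 and 23.5 CPM in challenged libraries, which overlapped, with a log2 change of 0.21 (SE 0.22, edgeR adjusted p = 0.564). Gsr, which returns oxidized glutathione to its reduced form, was at 317.8, 479.9 and 413.4 CPM in WT naive and 576.3, 711.7 and 578.8 CPM in WT ID8. Its challenged libraries were all above the naive ones, with a log2 fold change of 0.62 (SE 0.15, edgeR adjusted p = 0.007). In Tim4KO, Gsr was at 425.9, 472.1 and 395.0 CPM in naive and 528.6, 596.7 and 503.2 CPM in challenged libraries, without overlap, and its log2 change of 0.33 (SE 0.15) had an edgeR adjusted p of 0.158. Slc7a11 was at 3.36, 1.87 and 2.03 CPM in WT naive and 5.18, 2.49 and 1.55 CPM in WT ID8, and at 1.80, 0.799 and 1.97 CPM in Tim4KO naive and 1.15, 2.86 and 2.19 CPM in Tim4KO ID8. Its groups overlapped in both genotypes, with log2 changes of 0.32 in WT (SE 0.48, edgeR adjusted p = 0.614) and 0.38 in Tim4KO (SE 0.50, edgeR adjusted p = 0.647). With background as a covariate the WT change was 1.38 with an adjusted p of 0.0257.

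The proportion of the 2 reductases differed as well. Per length, Gsr was 15.9, 18.5 and 19.5 times Txnrd1 in WT naive and 9.46, 11.3 and 13.4 times in WT ID8, and 17.2, 20.9 and 17.1 times in Tim4KO naive and 14.6, 15.3 and 15.3 times in Tim4KO ID8. Challenged libraries were lower than naive ones in each genotype, and WT ID8 libraries lower than Tim4KO ID8 ones. For the ligase subunits, the ratio of Gclm to Gclc was 1.24 ± 0.155 (WT) and 1.05 ± 0.0567 (Tim4KO) in naive cells and 1.36 ± 0.450 (WT) and 1.19 ± 0.123 (Tim4KO) in challenged cells. The widest spread came from WT ID8 3, at 1.88.

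The regulator and the 2 detoxification genes had no increase that passed the test in either genotype. Nfe2l2 was at 117.5, 138.1 and 148.4 CPM in WT naive and 118.2, 156.4 and 122.9 CPM in WT ID8, which overlapped, with a log2 change of -0.02 (SE 0.14, edgeR adjusted p = 0.901). In Tim4KO it was at 171.8, 162.3 and 141.1 CPM in naive and 119.2, 116.6 and 120.1 CPM in challenged libraries. The challenged libraries were all lower, and the log2 change was -0.42 (SE 0.14, edgeR adjusted p = 0.0485), a call that held in 1 of the 12 fits without 1 library and became an adjusted p of 0.057 with a replicate block. Ephx1, which hydrolyses reactive epoxides, was at 82.4, 95.0 and 91.4 CPM in WT naive and 19.1, 19.8 and 57.0 CPM in WT ID8. All WT ID8 libraries were lower, although WT ID8 3 sat well above the other 2, and the log2 change was -1.46 (SE 0.38, edgeR adjusted p = 0.016). Without WT ID8 3 the change was -2.18 (adjusted p = 3.1e-08), and the call ended without WT naive 3 (0.0517) or WT ID8 2 (0.0564), with no filter on low counts (0.107) and in a fit to the 2 groups alone (0.0636). In Tim4KO Ephx1 was at 101.4, 160.2 and 118.6 CPM in naive and 72.6, 50.8 and 73.0 CPM in challenged libraries, without overlap, with a log2 change of -0.95 (SE 0.37, edgeR adjusted p = 0.117). Without WT ID8 3, which changes the shared estimate of spread, that change was -0.93 with an adjusted p of 0.000285. Ephx1 shares exonic sequence on the same strand with the gene model Gm36961. Nqo1, the quinone reductase often used as the marker of NRF2 activity, was at 0.542, 0.601 and 0.349 CPM in WT naive and 0.921, 0.859 and 0.730 CPM in WT ID8, where no library overlapped, and at 0.738, 0.399 and 0.845 CPM in Tim4KO naive and 0.538, 0.923 and 1.27 CPM in Tim4KO ID8, where they did. Its log2 changes were 0.73 in WT (SE 0.59, edgeR adjusted p = 0.341) and 0.42 in Tim4KO (SE 0.57, edgeR adjusted p = 0.662).

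**Figure D3:**
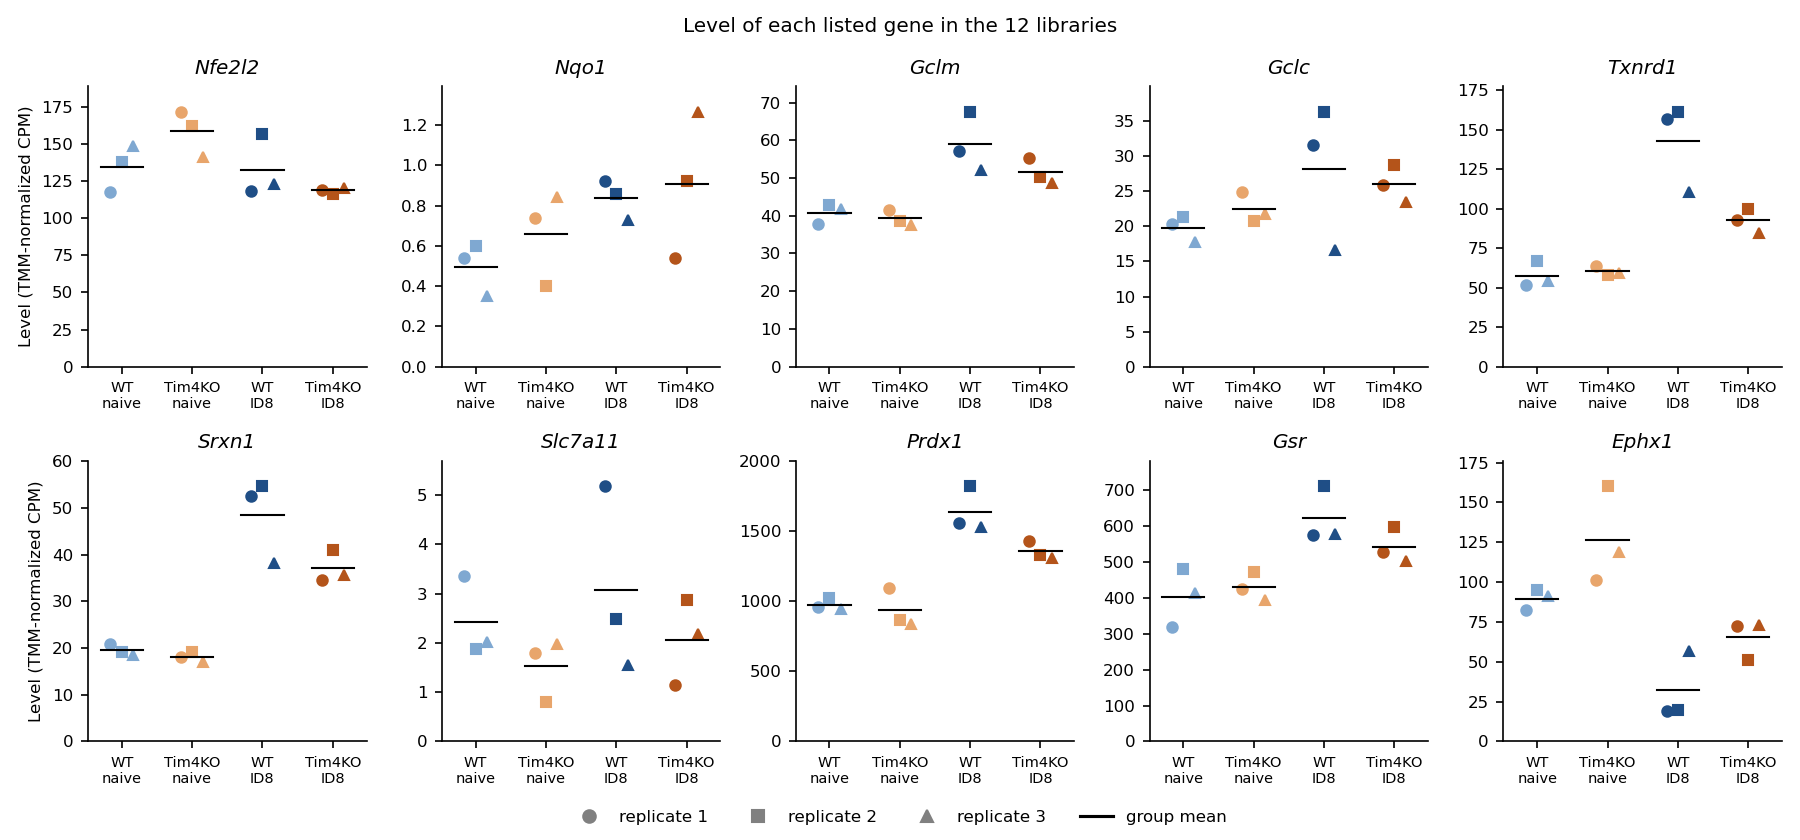
Level of each listed gene (TMM-normalized CPM, linear axes from 0) in the 12 libraries, with replicate numbers as symbols and the group mean as a line. For Txnrd1, Srxn1 and Ephx1 the triangle of WT ID8 3 lies toward the Tim4KO ID8 libraries and away from the other 2 WT ID8 libraries.

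Genes with related roles were taken as 7 lists of 93 further genes, of which 87 were tested. These lists too were chosen with earlier results of these data known, so their shares are descriptions. In WT 29 were called higher and 9 lower on challenge (43.7%, beside 31.8% of all tested genes), and in Tim4KO 25 higher and 4 lower (33.3%, beside 16.6%). Without WT ID8 3 the counts were 28 higher and 12 lower in WT and 33 and 6 in Tim4KO, and without Tim4KO naive 2 the 29 Tim4KO calls became 19. The median log2 change over the 87 was 0.20 in WT and 0.27 in Tim4KO. With upper-quartile scaling, which moved the median of all genes in WT from -0.04 to -0.28, the WT split became 18 higher and 19 lower. The listed genes kept 5 higher and 1 lower in WT, with a median of 0.34 instead of 0.58. In Tim4KO that scaling gave 23 higher and 7 lower in the lists. The listed genes there became 3 higher and 1 lower instead of 4 and 1, Gclm being lost (edgeR adjusted p = 0.0847).

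The genes listed under NADPH supply, which include Tkt and Taldo1 of the pentose phosphate pathway, were called higher in 6 of 6 cases in WT. The count was 4 of 6 in WT without WT ID8 3 and 4 of 6 in Tim4KO. Over all tested genes, 19.5% were called higher in WT and 11.5% in Tim4KO. Pgd, of the pentose phosphate pathway, rose with log2 fold changes of 0.92 in WT and 0.84 in Tim4KO, and G6pdx, which starts that pathway, with 0.63 and 0.55 (edgeR adjusted p at most 0.00467 for these 4 values). Taldo1, transaldolase, rose by 0.57 and 0.90 (edgeR adjusted p = 0.0186 and 0.00237). Its WT call held in 5 of 8 other settings and ended when WT ID8 3 was left out (0.40, adjusted p = 0.0646). Me1, malic enzyme, went from 6.61, 5.08 and 4.82 CPM in WT naive to 12.3, 14.3 and 12.5 CPM in WT ID8, a log2 change of 1.25 (SE 0.29, edgeR adjusted p = 0.00467). In Tim4KO Me1 was at 5.41, 4.13 and 2.98 CPM in naive and 2.38, 5.81 and 4.73 CPM in challenged libraries, with a log2 change of 0.05 (SE 0.30, edgeR adjusted p = 0.927) that became -0.06 with upper-quartile scaling. The difference between the 2 challenge responses of Me1 was -1.20 (SE 0.41, edgeR adjusted p = 0.668).

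Of 26 tested genes of glutathione synthesis, use and recycling, 8 were called higher and 4 lower in WT and 9 higher and 2 lower in Tim4KO. That is 46.2% and 42.3%, beside 31.8% and 16.6% of all tested genes. Glrx, glutaredoxin, rose with log2 changes of 1.96 and 1.42 (edgeR adjusted p = 3.37e-05 and 0.000717). Gpx3, a secreted glutathione peroxidase, fell with -1.73 and -1.92 (edgeR adjusted p = 1.9e-05 and 1.77e-05), and Mgst1, a membrane-bound glutathione transferase, with -1.59 and -1.07 (edgeR adjusted p = 6.52e-06 and 0.000306).

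Of 17 thioredoxin, peroxiredoxin and methionine sulfoxide repair genes, 5 were called higher in each genotype, and 3 lower in WT and 2 in Tim4KO. That made 47.1% in WT and 41.2% in Tim4KO, beside 31.8% and 16.6% of all tested genes. Without WT ID8 3 the lower calls were 5 and 4. The median log2 change over the 17 genes was -0.04 in WT and 0.25 in Tim4KO, beside -0.04 and -0.05 for all tested genes. Txn1, the thioredoxin that Txnrd1 reduces, rose with 0.73 and 0.82 (edgeR adjusted p = 0.00478 and 0.00427), the WT call ending with background as a covariate (0.0583). The peroxiredoxins Prdx2 (0.66 and 0.99) and Prdx3 (0.71 and 0.74) rose too, with an edgeR adjusted p of at most 0.00281. Txnip, which binds and restrains thioredoxin, fell with -0.93 and -0.81 (edgeR adjusted p = 0.00128 and 0.00569), as did Sesn1, a sestrin, with -1.16 and -0.71 (edgeR adjusted p = 2.26e-05 and 0.00159).

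Among 15 tested genes of quinone, carbonyl and xenobiotic handling, 5 rose and 0 fell in each genotype by edgeR. That is 33.3% in each, beside 31.8% of all tested genes in WT and 16.6% in Tim4KO. Without WT ID8 3 the counts were 5 higher and 1 lower in WT and 6 and 0 in Tim4KO. Akr1b8, an aldo-keto reductase, was at 0.108 to 0.732 CPM in the 6 naive libraries, near the floor of 3 counts (0.137 to 0.399 CPM), and at 4.33 to 8.51 CPM in the 6 challenged ones. Its log2 changes were 3.90 in WT and 3.31 in Tim4KO (edgeR adjusted p = 2.58e-05 and 0.000145). The glutathione-conjugate exporter Abcc1 rose with 1.42 and 1.05 and its relative Abcc4 with 0.90 and 0.71 (edgeR adjusted p at most 0.00292).

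Of 8 heme breakdown and iron storage genes, 2 were called higher in WT (1 without WT ID8 3) and 1 in Tim4KO. With all libraries these were 25.0% and 12.5%, under the 31.8% and 16.6% of all tested genes called in either direction. Hmox1, heme oxygenase 1, an NRF2 and BACH1 target, was at 95.0, 106.4 and 129.6 CPM in WT naive and 245.8, 278.7 and 188.8 CPM in WT ID8, and at 162.4, 134.5 and 122.4 CPM in Tim4KO naive and 178.5, 177.3 and 171.0 CPM in Tim4KO ID8. Within each genotype all challenged libraries were above the naive ones. It rose in WT with 1.11 (SE 0.16, edgeR adjusted p = 0.000191) and had 0.33 in Tim4KO (SE 0.16, edgeR adjusted p = 0.181). The difference of the responses was -0.78 (SE 0.23, edgeR adjusted p = 0.668). It became -0.92 when WT ID8 3 was left out (adjusted p = 0.0215). Blvra, biliverdin reductase, rose with 0.46 and 0.49 (edgeR adjusted p = 0.0159 and 0.0182). The WT call held in 5 of 8 other settings and ended when WT ID8 3 was left out (0.41, adjusted p = 0.0502), and the Tim4KO call held in 8 of the 12 fits without 1 library.

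Of 4 superoxide dismutase and catalase genes, 1 rose and 1 fell in WT, and edgeR called 0 in Tim4KO, or 1 without WT ID8 3. With all libraries the shares were 50.0% and 0.0%, beside 31.8% and 16.6% of all tested genes. Sod2, the mitochondrial superoxide dismutase, was at 105.1, 123.0 and 155.8 CPM in WT naive and 415.5, 509.2 and 150.1 CPM in WT ID8, so WT ID8 3 stayed in the naive range. The log2 change was 1.48 (SE 0.35, edgeR adjusted p = 0.00847), beside 0.62 in Tim4KO (SE 0.34, edgeR adjusted p = 0.26). When WT ID8 3 was left out these were 1.88 and 0.63, with adjusted p of 3.44e-09 and 0.00332. In fits to only the groups compared, the WT call ended (1.37, adjusted p = 0.0574) and the Tim4KO change was called (0.58, adjusted p = 0.00377). Cat, catalase, fell in WT with -0.70 (edgeR adjusted p = 0.0013) and had -0.33 in Tim4KO (edgeR adjusted p = 0.104, and 0.0155 with upper-quartile scaling).

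Among 11 regulators of NRF2, 2 were called higher and 1 lower in WT (27.3%, beside 31.8% of all tested genes), and 1 higher in Tim4KO (9.09%, beside 16.6%). Without WT ID8 3 the Tim4KO count was 2 and the WT counts 3 higher and 1 lower. Keap1 was at 40.3 to 43.1 CPM in WT naive and 45.8 to 51.5 CPM in WT ID8, with log2 changes of 0.21 in WT and 0.19 in Tim4KO (edgeR adjusted p = 0.183 and 0.315). Bach1 had 0.11 and -0.05 (edgeR adjusted p = 0.612 and 0.851). With upper-quartile scaling the WT changes of Keap1 and Bach1 were -0.04 and -0.13. Rbx1, the ring subunit of the ligase, rose with 0.71 and 0.66 (edgeR adjusted p = 0.00155 and 0.00485), and Nfe2l1, the NRF2 relative NRF1, rose in WT with 0.78 (edgeR adjusted p = 0.00271) and had 0.45 in Tim4KO (edgeR adjusted p = 0.0744, called in 3 of 8 other settings). Sqstm1, the p62 adaptor that binds KEAP1, fell in WT with -0.42 (edgeR adjusted p = 0.0405), a call that held in 2 of the 12 fits without 1 library, and had -0.06 in Tim4KO.

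**Figure D4:**
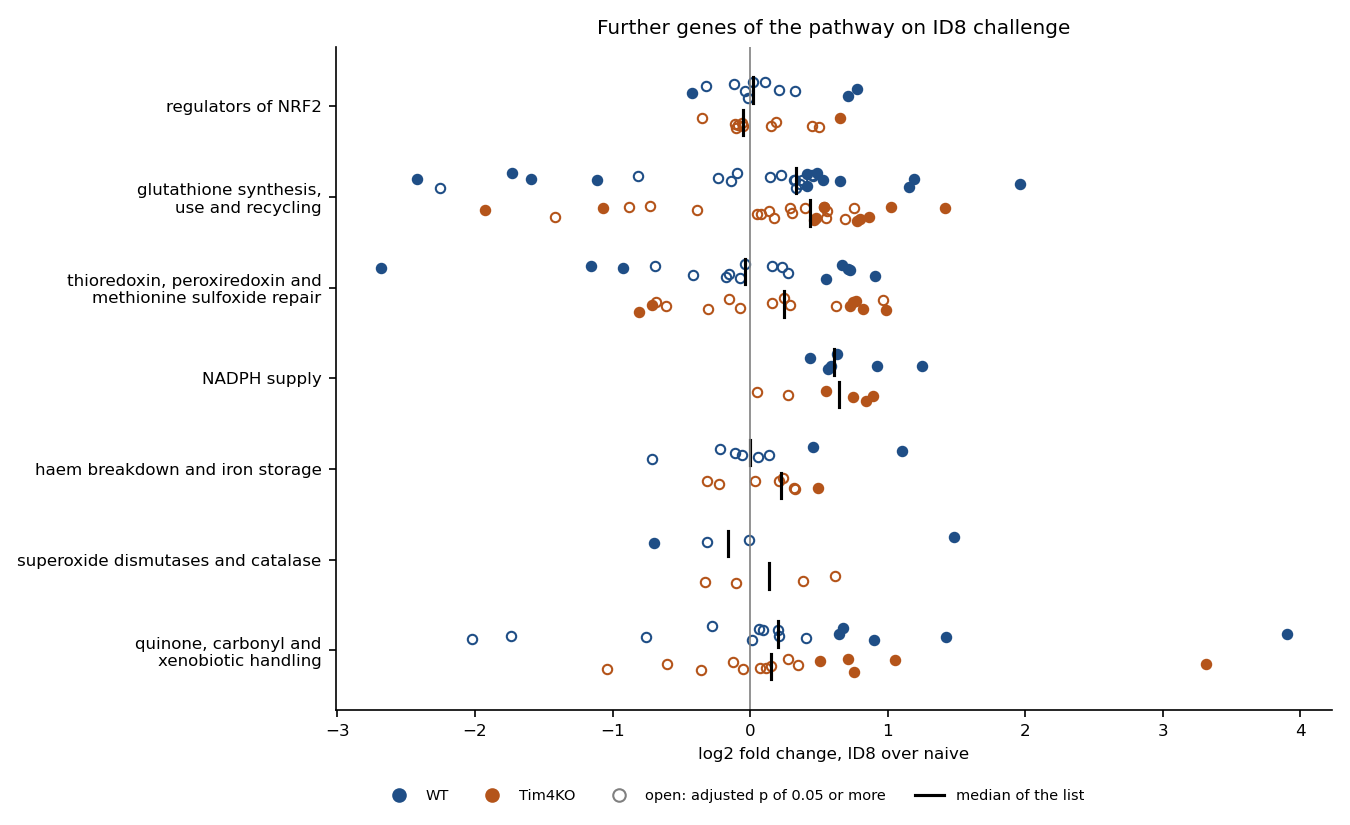
Log2 fold change from naive to ID8 of each tested gene of the 7 lists in WT (blue) and Tim4KO (orange), filled at an adjusted p under 0.05, with the median of each list as a black line. The NADPH supply genes lie to the right of 0 in both genotypes, with medians of 0.61 and 0.65, and Akr1b8, in the list of quinone, carbonyl and xenobiotic handling, is the point farthest right in each genotype.

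In naive cells no difference between Tim4KO and WT was called for any listed gene. By edgeR 0 of 10 passed, 0 had an unadjusted p under 0.05, and DESeq2 and limma voom called 0 as well, where edgeR called 0.0439% of all tested genes. Ephx1, with a log2 difference of 0.50 (SE 0.37, edgeR adjusted p = 0.875), was the 1 gene whose libraries did not overlap, all 3 Tim4KO libraries being higher (14.2% of all tested genes did not overlap). The other differences lay between -0.60 (Slc7a11) and 0.45 (Nqo1), the 2 genes with the fewest counts, and the median was 0.08.

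In challenged cells, 8 of the 10 genes had a negative log2 difference of Tim4KO from WT, and the median over all 10 was -0.20, beside 0.01 for all tested genes. By edgeR 0 of 10 were called (0.0565% of all tested genes), 3 had an unadjusted p under 0.05 (12.1% of all tested genes did), DESeq2 called 1 (Txnrd1) and limma voom 0. Txnrd1 averaged 143 ± 28.0 CPM in WT and 92.6 ± 7.61 CPM in Tim4KO libraries (mean ± SD, n = 3), with no overlap and a log2 difference of -0.63 (SE 0.15, edgeR adjusted p = 0.16). DESeq2 gave it an adjusted p of 0.00489, and edgeR with no filter on low counts 0.0154. Srxn1 was at 48.5 ± 8.89 and 37.1 ± 3.42 CPM, where WT ID8 3 fell within the Tim4KO range, with -0.38 (SE 0.14, edgeR adjusted p = 0.313). Ephx1 went the other way, at 32.0 ± 21.7 CPM in WT and 65.5 ± 12.7 CPM in Tim4KO libraries, with 1.01 (SE 0.38, edgeR adjusted p = 0.34). WT ID8 3 overlapped the Tim4KO libraries and WT ID8 1 and 2 were below them. Prdx1 did not overlap either, at 1633 ± 161.8 and 1355 ± 67.6 CPM, with -0.27 (SE 0.13, edgeR adjusted p = 0.421). The groups of 2 of the 10 genes did not overlap, where 15.6% of all tested genes did not.

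Whether these genotype differences were called depended on WT ID8 3 and, for Txnrd1 and Ephx1, also on the method or setting of the fit. WT ID8 3 was the lowest of the 3 WT ID8 libraries for 7 of the 8 listed genes with a positive WT challenge change, a count not made over all tested genes. Without it, Txnrd1 was -0.78 (adjusted p = 0.0023), Srxn1 -0.53 (0.0256) and Ephx1 1.76 (2.32e-05) by edgeR, so 3 of 10 were called, where 5.74% of all tested genes were. With receptor background as a covariate and all libraries, Txnrd1 (-0.71, adjusted p = 0.0312) and Ephx1 (1.65, adjusted p = 0.00714) were called. The part of the background in these differences was not tested beyond that fit.

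**Figure D5:**
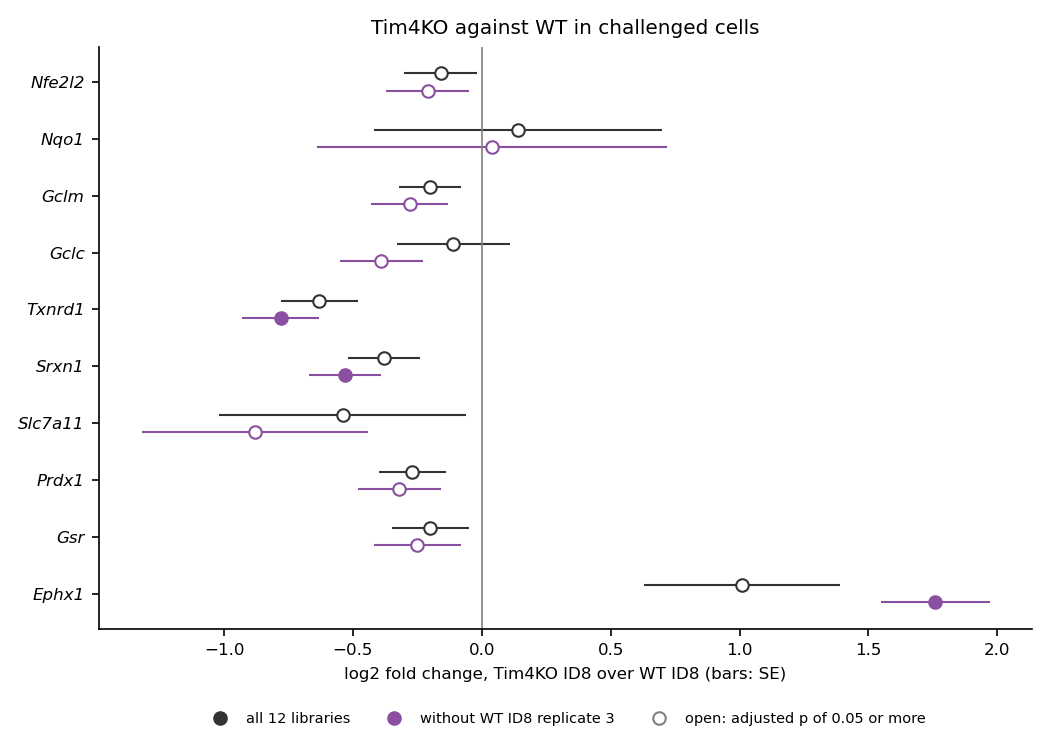
Log2 difference of Tim4KO ID8 from WT ID8 for each listed gene with all 12 libraries (black) and without WT ID8 3 (purple), bars showing standard errors and filled points an adjusted p under 0.05. Txnrd1, Srxn1 and Ephx1 are filled only without WT ID8 3.

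Whether the challenge response differed by genotype was tested as an interaction, the Tim4KO change minus the WT change. By edgeR 0 of the 10 listed genes were called (0.0% of all tested genes), 1 had an unadjusted p under 0.05 (7.44% of all tested genes did), and DESeq2 and limma voom called 0. That gene was Txnrd1, with -0.69 (SE 0.21, edgeR adjusted p = 0.668). The absolute change was smaller in Tim4KO than in WT for 8 of the 10 genes, as for 66.1% of all tested genes. Gclm, Txnrd1, Srxn1 and Prdx1, 4 genes, were called in both genotypes, which is 66.7% of the listed genes' WT calls and 80.0% of their Tim4KO calls. Over all tested genes these shares were 41.6% and 79.8%. Without WT ID8 3 the interaction was -0.85 for Txnrd1 (edgeR adjusted p = 0.0239) and 1.25 for Ephx1 (0.0118), 2 of 10, where 2.12% of all tested genes were called.

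The genes whose levels followed a listed gene most closely over the 12 libraries were found by the root-mean-square difference of log2 CPM after centring, among 9692 or 9693 genes. For Prdx1 they were Ssb (0.057) and Vdac2 (0.067), for Gclm Cyb5r4 (0.059) and Gnb1 (0.066), and for Nfe2l2 Lrch1 (0.079) and Mfap1a (0.080). Gsr was followed by Itgb1 (0.087) and Tdrkh (0.090), Gclc by Wdr43 (0.089) and Dnajc3 (0.098), and Txnrd1 by Bri3bp (0.121) and Tdg (0.123). The distance is not scaled to how much a gene varied. Ephx1 had Itgb3 (0.196) and Fam129a (0.240) nearest, but its median distance to the compared genes was also the largest, at 0.975. For the other listed genes that median was 0.309 (Gclm) to 0.599 (Slc7a11). The low-count genes Nqo1 (Samd1, 0.187, and Rhbdd3, 0.190) and Slc7a11 (Mief2, 0.323, and Lyrm1, 0.330) had medians of 0.367 and 0.599. None of these nearest genes was itself a listed gene, though Nqo1 and Slc7a11, under the mean count of 50 required, could not be. With so few genes taken for each, this does not show whether the listed genes varied together.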

How the data were processed

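RNA was extracted from sorted cells with a column kit and libraries were made by PCR amplification of cDNA (SMART-Seq mRNA LP), per the labels' protocols. The values are raw read counts per gene, deposited by the authors as 1 table. The submitters' processing notes name FastQC, STAR 2.5 and the builds mm10 and GRCm39. The counting program and the handling of strand and multi-mapping reads are not given in the sources used here. GENCODE vM21 named 52029 of the 57010 identifiers and gave exonic lengths, and promoters came from RefSeq on GRCm38.p6.

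The tool for the tests was edgeR 4.0.16 (R 4.3.3), with TMM factors, filterByExpr defaults, 1 quasi-likelihood fit of the 4 group means to all 12 libraries (8 residual degrees of freedom), two-sided tests and Benjamini-Hochberg adjustment over 15943 genes. A count of 3, the floor used, was 0.137 to 0.399 CPM, which covers counting error only. Alternatives were other scalings, no filter, DESeq2 1.42.0, limma 3.58.1 voom, a fit to only the groups compared, a replicate block, background as a covariate (1713 olfactory and vomeronasal receptor genes) and each library left out. Every listed gene is named. From each further list up to 3 called genes per comparison were named in order of p, with Keap1, Bach1, Hmox1, Txn1, Sod2 and Cat always named. The genes nearest in pattern to Srxn1 are not reported here. The members and lists were chosen with earlier results of these data known. The code was tested on simulated data.

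Replicate numbers are shared by the groups in the labels. Deviations of same-numbered libraries correlated with r of -0.429 to 0.368, over 0.1 in 5 of 18 pairs. In the WT challenge comparison all 3 pairs were over 0.1 (0.133 to 0.367), and in the other comparisons not all were. Libraries of different groups with different numbers had r of -0.280 to 0.434, so these values do not show pairing.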

Additional observations from a re-analysis of the deposited data

How the results depend on the processing

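The number of listed genes called on challenge in Tim4KO, 5 with all libraries, was 3 with no filter on low counts and 1 to 5 when 1 library was left out. In WT the number was 6, 5 to 7 when 1 library was left out, and 8 with background as a covariate. In challenged cells 0 listed genes differed by genotype, with 1 by DESeq2, 1 with no filter, 2 with background as a covariate and 0 to 3 when 1 library was left out. The interaction gave 0, and 0 to 2 when 1 library was left out, and the naive genotype comparison 0 throughout. With the replicate block, 4 listed genes were called in Tim4KO (Nfe2l2 was lost, adjusted p = 0.057) and 6 in WT, Sqstm1 was lost in WT (adjusted p = 0.0526), and no other call of a gene named here changed. Over all genes the count of 7 in the naive genotype comparison was 3 with the block, 3 with limma voom, 2 with only the groups compared, 42 by DESeq2, 59 with no filter, 1 without any single WT naive library and 29 without WT ID8 3. That of 9 in challenged cells was 14 with the block, 179 with the covariate, 227 by DESeq2, 264 with no filter, and 1 (without Tim4KO ID8 1 or 3) to 997 (without WT ID8 3) with 1 library left out. The WT challenge count of 5067 was 3102 with only the groups compared, where 25 rather than 38 list genes were called. The WT count fell to 3362 without WT naive 3, and the Tim4KO count of 2642 to between 1222 and 1666 without Tim4KO naive 2 or 3 or any of the Tim4KO ID8 libraries. The interaction count of 0 was 2 with the covariate, 4 by DESeq2, 73 with no filter and 368 without WT ID8 3. With upper-quartile scaling 33.9% of WT calls were higher instead of 61.3%, and 48.7% instead of 69.5% in Tim4KO.

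Signs turned for changes that were not called. Nfe2l2 in WT was 0.09 with no filter and -0.13 to 0.12 with 1 library left out. In challenged cells the genotype difference of Nqo1 was -0.13 with the covariate and -0.20 to 0.40 with 1 library left out, and that of Gclc 0.002 by limma voom and -0.39 to 0.12. In naive cells the left-out ranges were -0.01 to 0.20 for Txnrd1, -0.19 to 0.02 for Prdx1 and -0.05 to 0.25 for Gsr. Slc7a11 ran from -0.19 to 0.69 in WT, and its interaction from -0.31 to 0.57, with -0.68 under the covariate. Upper-quartile scaling gave -0.04 for Keap1 and -0.13 for Bach1 in WT and -0.06 for Me1 in Tim4KO, and the covariate gave -0.11 for Bach1 in WT. In Tim4KO the left-out ranges were -0.14 to 0.13 for Bach1, -0.12 to 0.03 for Sqstm1 and -0.18 to 0.35 for Me1. The cause was not tested. Nqo1 and Slc7a11 had at most 22 and 45 counts a library.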
